A study of Rattus norvegicus with 6 samples.

Results

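The miR-30 family comprises 6 rat microRNA (miRNA) genes, Mir30a, Mir30b, Mir30c1, Mir30c2, Mir30d and Mir30e, which were found by gene symbol among the 32883 genes of a small RNA sequencing table. They were read in 6 libraries of an edited rat insulinoma line, INS-1(832/13)::mCherry, a beta-cell line that carries a human INS transgene and a mouse Ins2-C-mCherry reporter transgene. The 3 control lines (5-9, 2 and 16) lack the imprinted Prader-Willi syndrome (PWS) domain on the silent maternal allele only. The 3 PWS lines (3, 19-1 and 19-4) lack it on the maternal and the paternal allele, so the maternal deletion is common to all 6. Each line was a clonal culture at 7.5 mM glucose and gave 1 library. Control lines 2 and 16 and the PWS lines all descend from line 5-9, line 3 has a larger deletion, and 19-1 and 19-4 are subclones of one edited line. p-values therefore describe the spread among these related clones only.

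A miRNA is cut from a hairpin precursor and guides an Argonaute protein to messenger RNAs, mainly through its seed, bases 2 to 8 of the mature strand. The miR-30 genes lie in the genome as pairs of neighbours and make mature 5p strands with one common seed. In pancreatic islets the family has been linked to the epithelial state of differentiating endocrine cells and to expression of the insulin gene.

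The mature strands are shown because the shared seed groups the genes, and because one strand comes from 2 of them. Sequences are from RefSeq (build GRCr8), 5′ to 3′, with the seed in capitals, and matched 4 of the 6 genes, all but Mir30b and Mir30d.
miR-30a-5p (Mir30a): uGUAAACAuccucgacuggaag
miR-30e-5p (Mir30e): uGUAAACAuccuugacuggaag
miR-30c-5p (Mir30c1 and Mir30c2): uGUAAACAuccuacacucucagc
miR-384-5p (Mir384): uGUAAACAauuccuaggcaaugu
Positions are counted from 1 at the 5′ end, with the base of the first strand named before the position. miR-30a-5p and miR-30e-5p differed at a single position (C13U), outside the seed. miR-30c-5p departed from miR-30a-5p at 5 positions (C13A, G14C, G18C, G19U and A20C) after 12 shared bases. Among 724 mature rat sequences from 437 miRNA genes, the seed was found in 1 gene besides these 4, Mir384. Its 5p strand shared only the first 8 bases with miR-30a-5p and differed at 10 of the 22 positions compared.

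The opposite, 3p strands of the hairpins carried other seeds, and are shown because the deposited values sum both arms of each gene.
miR-30a-3p: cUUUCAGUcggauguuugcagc
miR-30c-1-3p: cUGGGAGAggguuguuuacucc
miR-30c-2-3p: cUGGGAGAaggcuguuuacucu
The 3p strands of Mir30c1 and Mir30c2 shared a seed and differed at 3 positions (G9A, U12C and C22U). The hairpins of these genes follow, with the identical 5p strand in capitals.
Mir30c1 hairpin: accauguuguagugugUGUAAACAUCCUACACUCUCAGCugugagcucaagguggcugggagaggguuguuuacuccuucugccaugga
Mir30c2 hairpin: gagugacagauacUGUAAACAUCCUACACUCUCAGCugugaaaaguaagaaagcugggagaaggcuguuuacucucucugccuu
A read of this 5p strand matches either gene equally well and cannot be assigned to one of them.

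Values are normalized reads: reads with distinct molecular identifiers per gene, divided by a size factor of the library. Totals ranged from 7373691 reads in PWS line 19-4 to 16480475 in PWS line 3. Of these, 88.46% (PWS line 19-4) to 90.02% (control line 5-9) lay in miRNA genes. The domain's Snord116 copies gave 4251 to 10516 reads per control library and at most 3 per PWS library, in keeping with the labelled genotypes. The beta-cell miRNA Mir375 had between 558022 and 833397 normalized reads and Ins1 between 88.3 and 284.7. The 6 beta-cell markers listed (Ins1, Ins2, Iapp, Mir375, Mir7a1 and Mir7a2) summed to between 1901548 and 3329417 normalized reads in controls and between 2048276 and 2842609 in PWS lines. Mir375, Mir7a1 and Mir7a2 made up nearly all of each sum, so it says little of the hormone genes. All 6 markers had a negative log2 difference and 0 were called. Ins2 had 22.7, 10.5 and 30.1 normalized reads in lines 5-9, 2 and 16 and 16.0, 6.30 and 0 in lines 3, 19-1 and 19-4, from 103 reads in all (log2 difference -2.03 ± 0.74, SE, limma adjusted p 0.727). Ins1 had a log2 difference of -0.61 ± 0.36 (SE, limma adjusted p 0.860). Ins1, Ins2 and Mir375 were lowest in PWS line 19-4, whereas Iapp, Mir7a1, Mir7a2 and the sum of the 6 were lowest in control line 2. The hormone genes of other islet cells (Gcg, Sst, Ppy and Ghrl) and the acinar and ductal genes Prss1, Cpa1, Cela1 and Krt19 had no read in any library. A limit of 3 reads corresponds there to 1.78 to 3.96 normalized reads. Of the blood-cell miRNAs, Mir142 had 43.1 to 75.1 normalized reads, while Mir451a had 16 reads in all and Mir223 had 4. The muscle miRNA Mir206 had 2 reads in all. In these bulk cultures, a lower level may reflect fewer cells that make a miRNA or less of it per cell, and these cannot be told apart.

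The family as a whole was abundant, and Mir30d made up most of it. The summed level of the 6 genes was 453859, 421187 and 405494 normalized reads in control lines 5-9, 2 and 16. It was 394749, 420213 and 347755 in PWS lines 3, 19-1 and 19-4. The groups overlapped, with line 19-1 above control line 16 and line 19-4 lowest of all. The controls averaged 426847 ± 24674 and the PWS group 387572 ± 36758 (SD, n = 3 each), a difference of -0.14 on the log2 scale that was not tested, since the members were chosen as a group. As a share of all miRNA reads, the family took 4.45% ± 0.250 in controls against 4.30% ± 0.235 with the full deletion (SD, n = 3 each). Counting error on such a share was small, with a 95% Wilson interval of at most ± 0.0159 percentage points in a library.

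**Figure D1:**
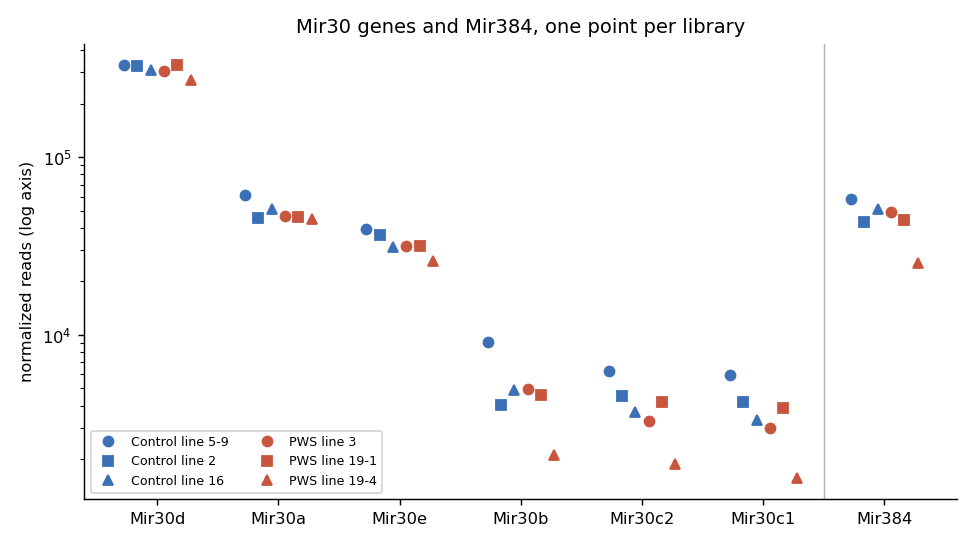
Normalized reads (log axis) of the 6 Mir30 genes and of Mir384, which shares their seed, with 1 point per library. Blue points are control lines and red points PWS lines. Mir30d sits between 271313 and 331950 in all 6 libraries, the points of both groups overlap for each gene, and PWS line 19-4 is lowest throughout.

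Mir30d (ENSRNOG00000035611), reported to raise insulin gene expression in beta cells, ranked 9 among the miRNA genes by mean level. It had 331950, 326251 and 311342 normalized reads in control lines 5-9, 2 and 16, and 304931, 329562 and 271313 in PWS lines 3, 19-1 and 19-4. It was the steadiest member, with 1.22-fold between the highest and lowest library. Its share of the family's reads was 73.1 to 78.4% per library (Wilson interval within ± 0.158 percentage points).

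Mir30a (ENSRNOG00000035646) ranked 29, at 61362, 45497 and 50988 normalized reads in control lines 5-9, 2 and 16 and 46807, 46306 and 44779 in the PWS lines in the order above. Control line 5-9 stood above the rest, and the PWS lines lay within the lower part of the control range or just under it. Mir30e (ENSRNOG00000035640) ranked 39, at 39222, 36641 and 31229 in control lines and 31774, 31714 and 26104 in PWS lines. PWS lines 3 and 19-1 fell within the control range and line 19-4 below it. Its level was 8.02% of family reads on average, against 12.1% for Mir30a.

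The other members were scarcer and far more variable. Mir30b (ENSRNOG00000053467), rank 78, had 9174, 4055 and 4919 normalized reads in lines 5-9, 2 and 16. In PWS lines 3, 19-1 and 19-4 it had 4961, 4596 and 2119. Lines 2, 16, 3 and 19-1 were close together, with line 5-9 far above them and line 19-4 far below.

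Mir30c2 (ENSRNOG00000035562), rank 89, had 6226, 4525 and 3694 normalized reads in lines 5-9, 2 and 16 and 3269, 4178 and 1880 in lines 3, 19-1 and 19-4. Mir30c1 (ENSRNOG00000035567), rank 93, had 5924, 4219 and 3322 in the controls and 3007, 3857 and 1561 in the PWS lines. For each of these genes, PWS line 19-1 lay above control line 16, so the groups overlapped. Mir30b, Mir30c1 and Mir30c2 together held 4.70% of the family's reads in line 5-9 and 1.60% in line 19-4, with 2.85 to 3.04% in the other lines.

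In the order of levels, Mir30d stood 5.41 to 7.17-fold above Mir30a, and Mir30a 1.24 to 1.72-fold above Mir30e, in each of the 6 libraries. Mir30e was 4.27 to 12.3-fold above Mir30b. Mir30b and Mir30c2 were not separated, since the mean log2 ratio was 0.29 ± 0.29 (SD, n = 6) and line 2 had more Mir30c2. The mature strands are 22 or 23 bases long where the sequence is known, and levels were not divided by length. The length and position of reads within a hairpin were not examined. How well each strand is captured in a library was not measured.

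Mir30c1 and Mir30c2 gave nearly the same values in each library. Mir30c2 held 51.2% of their joint reads in control line 5-9 (95% Wilson interval 50.4 to 52.1), 51.7% in line 2 (50.6 to 52.9) and 52.7% in line 16 (51.6 to 53.7). It held 52.1% in PWS line 3 (51.1 to 53.0), 52.0% in line 19-1 (50.9 to 53.1) and 54.6% in line 19-4 (52.7 to 56.5). Every library thus lay near an even split with a small excess for Mir30c2, and Pearson's r between the log2 values was 0.999 over the 6 libraries. Neither the split nor the excess can be read as output of 1 gene, because the 5p strand is common to both. Their summed level was 9303 ± 2612 normalized reads over the controls and 5917 ± 2318 over the PWS group (SD, n = 3 each).

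None of the 6 genes passed the test for a difference between PWS and control lines, although each had a lower mean in PWS lines. limma-trend on log2(normalized reads + 1) called 55 of the 4292 genes that averaged 5 normalized reads or more at an adjusted p under 0.1, or 1.28%, and 0 of 6 Mir30 genes. edgeR, DESeq2 and limma-voom on the recovered reads also called 0 of 6. At an unadjusted p under 0.05, limma-trend found Mir30c1 and Mir30c2 lower in PWS lines, whose reads of the shared 5p strand cannot be separated. That threshold was passed downward by 3.8% of all genes tested, and by 31 of the 259 miRNA genes among them. It was passed by 2 members with edgeR, 2 with limma-voom and 0 with DESeq2. With limma-trend it was passed by 0 members without control line 5-9, 0 without PWS line 19-4 and 0 with a filter at a mean of 20. As many as 3 members passed without PWS line 3 or line 19-1, with a filter at a mean of 1, with no filter, and with the replicate number as a block.

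The log2 difference (PWS minus control, ± SE, with Benjamini-Hochberg adjustment over all genes) was largest for Mir30c1, at -0.73 ± 0.31 with a 95% interval of -1.39 to -0.07 and a limma adjusted p of 0.831. For Mir30c2 it was -0.67 ± 0.29 (-1.29 to -0.05), also with a limma adjusted p of 0.831. For Mir30b it was -0.64 ± 0.34 (-1.35 to 0.07), with a limma adjusted p of 0.845. The width of these intervals leaves room for a difference of over 2-fold or nearly none.

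The abundant members had smaller and tighter differences. Mir30e differed by -0.26 ± 0.20 (95% interval -0.69 to 0.17, limma adjusted p 0.886) and Mir30a by -0.18 ± 0.20 (-0.61 to 0.24, limma adjusted p 0.898). Mir30d differed by -0.10 ± 0.18 (-0.49 to 0.29, limma adjusted p 0.950). Its interval does not reach a 1.5-fold change in either direction. Scaled to miRNA reads in place of size factors, the differences were -0.0072 for Mir30d, -0.089 for Mir30a and -0.162 for Mir30e. The median over the 6 genes was -0.45, beside 0.005 over all genes tested, -0.14 over the 259 miRNA genes tested and -0.12 over the 112 other miRNA genes with a mean of at least 1000. Of those 112, 77 were lower in PWS lines (68.8%), so a negative value was usual for an abundant miRNA.

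**Figure D2:**
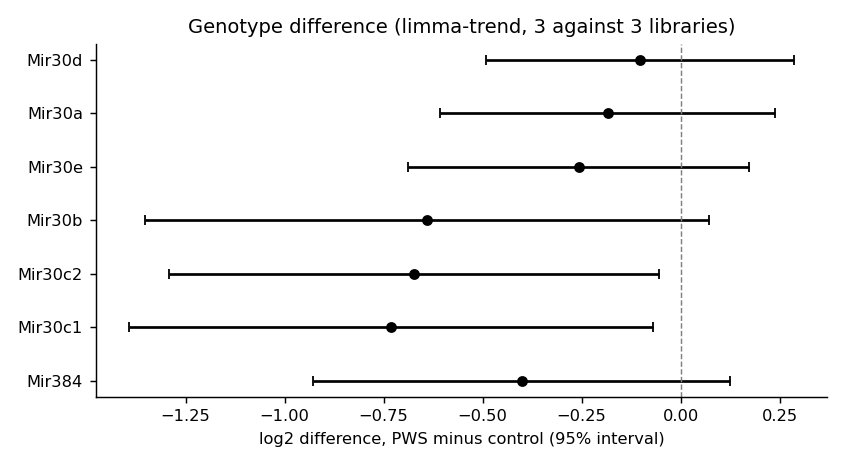
Log2 difference between PWS and control lines for each Mir30 gene and Mir384, as a point with its 95% interval (limma-trend, 3 libraries against 3). All points lie below 0, and the intervals of Mir30c1 and Mir30c2 alone end below 0, with limma adjusted p-values of 0.831.

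The scarce members were lowest in PWS line 19-4 and highest in control line 5-9. In line 19-4, Mir30b lay 1.10 below its own mean over the 6 libraries on the log2 scale (a deviation of -1.10), Mir30c1 at -1.12 and Mir30c2 at -0.99. In line 5-9 the deviations were 1.01, 0.81 and 0.74 for the same genes. None of the 112 other miRNA genes with a mean of at least 1000 was lower than Mir30b or Mir30c1 in line 19-4, and none was higher than these 3 genes in line 5-9. The median deviation of those 112 genes was -0.25 in line 19-4 and 0.21 in line 5-9, so other miRNAs moved the same way to a lesser extent. Line 19-4 was also the shallowest library. Of the 6 beta-cell markers, 3 were lowest in this library and 3 in control line 2. Mir7a1 and Mir7a2, both lowest in line 2, had nearly equal values in each library and should not be counted as separate markers. The part of depth or of marker levels in the low values of line 19-4 was not tested.

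Without line 19-4, the log2 difference was -0.25 for Mir30b, -0.36 for Mir30c1 and -0.35 for Mir30c2. Without line 5-9 it was -0.29, -0.51 and -0.47. Leaving out line 19-1 gave larger values of -1.01 for Mir30c1 and -0.92 for Mir30c2, and leaving out line 2 gave -0.88 for Mir30b. Mir30d went to -0.03 and Mir30e to -0.16 without line 19-4, while Mir30a went to -0.07 without line 5-9 and to -0.28 without control line 2. Without line 16, Mir30e was at -0.35, and without line 19-1 Mir30d was at -0.17. No gene changed sign or was called in any of these fits.

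**Figure D3:**
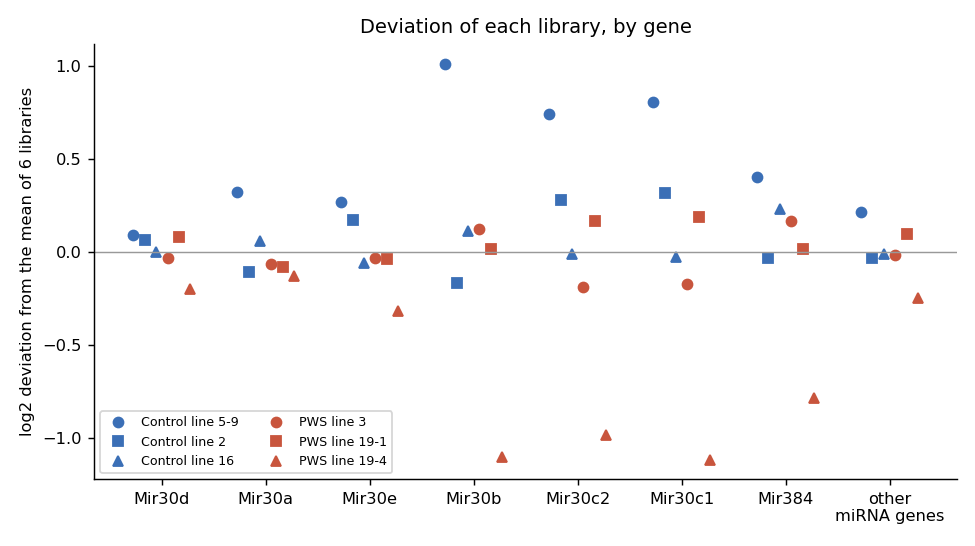
Deviation of each library's log2 value from the mean of the 6 libraries, by gene, with control lines in blue and PWS lines in red. The last column is the median over the 112 other miRNA genes with a mean of at least 1000. Mir30b, Mir30c2 and Mir30c1 span from 1.01, 0.74 and 0.81 in line 5-9 to -1.10, -0.99 and -1.12 in line 19-4.

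The members divided into a steady and a variable set. Over the 6 libraries the SD of the log2 value was 0.68 for Mir30b, 0.64 for Mir30c1 and 0.58 for Mir30c2, which ranked 1, 3 and 4 among 118 miRNA genes with a mean of at least 1000. It was 0.20 for Mir30e, 0.17 for Mir30a and 0.11 for Mir30d, at ranks 86, 99 and 113. The median over the 112 others was 0.30. Leaving out line 19-4, a choice made after the values were seen, brought Mir30b, Mir30c1 and Mir30c2 to ranks 10, 18 and 22. Leaving out line 5-9 brought them to 11, 4 and 13.

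**Figure D4:**
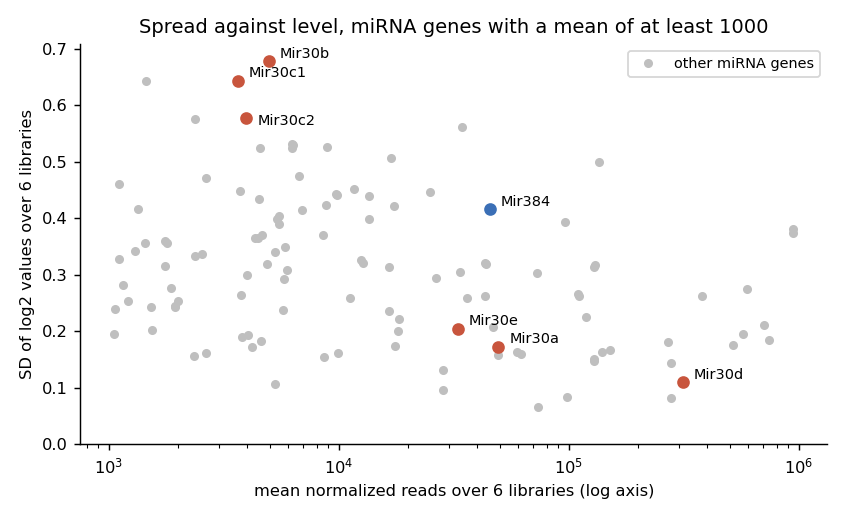
SD of log2 values over the 6 libraries against mean normalized reads (log axis) for 118 miRNA genes, with Mir30 genes in red, Mir384 in blue and others in grey. Mir30b, Mir30c1 and Mir30c2 sit at the top left, above nearly all genes of like level, and Mir30a, Mir30d and Mir30e near the bottom.

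Each genomic pair joins 1 abundant and 1 scarce gene. In RefSeq, Mir30b and Mir30d are neighbours within the long non-coding RNA gene LOC102551574, and Mir30c1 and Mir30e are neighbours within Nfyc, which encodes a subunit of the transcription factor NF-Y. Mir30a and Mir30c2 are also neighbours, with Mir30c2 inside LOC134480562 and the pseudogene Rbx1-ps1. Of these host genes the table lists Nfyc, which had 0 to 5.25 normalized reads per library and was too low to test. The libraries were size-selected for small RNA, so this says nothing of the Nfyc messenger RNA.

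The ratio within a pair does not depend on how a library is scaled. For Mir30d and Mir30b it asks whether neighbours shifted apart. For the pairs with Mir30c1 or Mir30c2 it cannot, since reads of the miR-30c-5p strand cannot be assigned to either gene. The ratio of Mir30d to Mir30b was 36.2, 80.5 and 63.3 in control lines 5-9, 2 and 16, and 61.5, 71.7 and 128.1 in PWS lines 3, 19-1 and 19-4. Lines 5-9 and 19-4 marked the extremes and the other 4 lines overlapped. The mean log2 ratio was 5.83 ± 0.59 among controls and 6.37 ± 0.56 among PWS lines (SD, n = 3 each), a difference of 0.54 with a 2-sided exact permutation p of 0.5.

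The ratio of Mir30a to Mir30c2 was 9.86, 10.1 and 13.8 in control lines and 14.3, 11.1 and 23.8 in PWS lines. On the log2 scale it was 3.47 ± 0.27 among controls and 3.96 ± 0.56 among PWS lines (SD, n = 3 each), 0.49 apart with an exact permutation p of 0.2. PWS lines 3 and 19-4 lay above each control line, and line 19-1 lay below control line 16. The ratio of Mir30e to Mir30c1 was 6.62, 8.69 and 9.40 in control lines and 10.6, 8.22 and 16.7 in PWS lines. Its log2 means were 3.03 ± 0.27 and 3.50 ± 0.52 (SD, n = 3 each), 0.48 apart with an exact permutation p of 0.3.

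Adjusted over the 3 pairs, these p-values were 0.5, 0.45 and 0.45, and with 3 against 3 lines no p below 0.1 can be reached. The last 2 ratios share the miR-30c-5p strand and are not independent. Without line 19-4 the differences were 0.22, 0.18 and 0.19 in the order given. Without line 5-9 they were 0.21, 0.40 and 0.33.

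**Figure D5:**
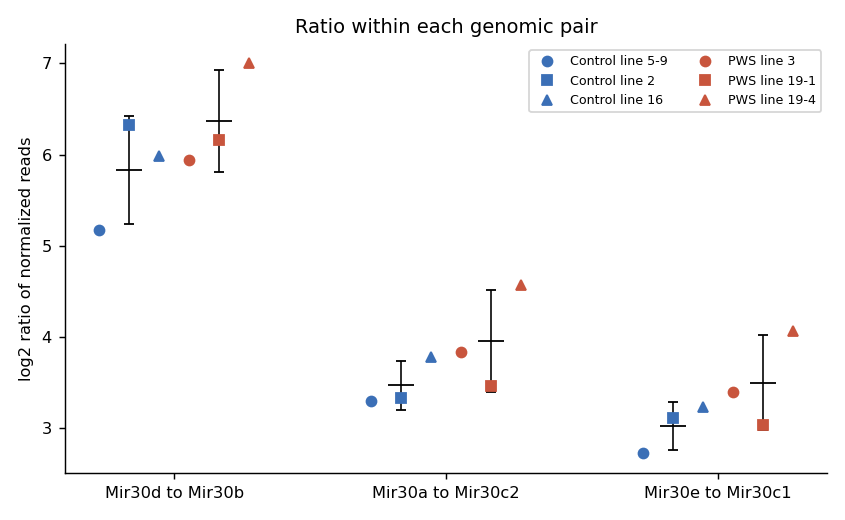
Log2 ratio of the abundant to the scarce gene in each genomic pair, 1 point per library, with control lines in blue and PWS lines in red. Black bars give mean ± SD of each group. The groups overlap for each pair, with line 5-9 lowest and line 19-4 highest.

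Mir384, the remaining gene with the seed, had a mean level close to that of Mir30a (45232 against 49290 normalized reads). It had 57927, 42968 and 51436 normalized reads in control lines 5-9, 2 and 16 and 49314, 44315 and 25431 in PWS lines 3, 19-1 and 19-4. It too was highest in line 5-9 and lowest in line 19-4, and the other PWS lines lay within the control range. The log2 difference was -0.40 ± 0.25 (SE, 95% interval -0.93 to 0.12, limma adjusted p 0.860), and it was -0.11 without line 19-4. Of all reads of the 7 genes, it supplied 6.81 to 11.3% per library.

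Across the 6 libraries, Pearson's r between log2 values of Mir30 genes ran from 0.47 (Mir30a and Mir30d) to 0.999 over the 15 pairs. Mir30b followed Mir384 with r = 0.94, and Mir30d followed Mir30c1 with r = 0.96 despite its much smaller range. These values are descriptions over 6 libraries that share lines 5-9 and 19-4 as extremes, and a common scaling.

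Among the 251 non-member genes with a mean of at least 1000, the closest to Mir30d were Mir342 (r = 0.99), Mir125b1 (r = 0.99) and Mir128-1 (r = 0.98). Those closest to Mir30b were Mir325 (r = 0.96), the RefSeq neighbour of Mir384, then Mir130a (r = 0.96) and Mir26a (r = 0.95). Mir30c1 and Mir30c2 were each most like Mir26a (r = 0.99 for both) and its copy Mir26a-2. After these came Mirlet7d for Mir30c1 (r = 0.98) and Mirlet7g for Mir30c2 (r = 0.97). Mir30a was most like Mir148b (r = 0.96), then Scarna15 and Mir1839 (r = 0.94 for both), whose mean levels were nearly equal (16510 and 16517 normalized reads). Mir30e was most like AY172581.14 and the copies of Mir598 (r = 0.98 for each). None of these genes was called, with log2 differences between -0.49 and -0.10.

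By mean level, Mir30d (312558 normalized reads) stood between Mir183 (377772) and Mir27b (278494), and Mir30a (49290) between Mir129-1 (59214) and Mir21 (48945). Mir30e (32781) stood between Mirlet7g (33498) and Mir106b (28444). Mir30b (4971) stood between Mir128-1 (5250) and Mir92b (4845), and the miR-30c genes were near Mir325 (3982), Mir879 (3784) and Mir15b (3711). The family thus ran from rank 9 to rank 93 among the 355 miRNA genes with a read.

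The genes that make and use miRNAs showed no called difference. Of 13 such genes listed, 7 were abundant enough to test and 0 were called, with 5 higher and 2 lower in PWS lines and a median of 0.12, against 0.005 over all genes. Dicer1, which cuts the precursor hairpin, had 16.9 ± 3.90 normalized reads among controls and 12.1 ± 2.75 among PWS lines (SD, n = 3 each), with a limma adjusted p of 0.887. Xpo5, which exports the hairpin from the nucleus, had 5.37 ± 1.51 and 9.84 ± 5.94 (SD, n = 3 each), with a limma adjusted p of 0.889. Dgcr8, the partner of Drosha, had 3583 reads in the table that counts a read for every gene it overlaps and 31 in the table that drops such reads, so nearly all of its signal lay where another gene overlaps.

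The list of genes reported as miR-30 targets or as parts of its beta-cell setting held 12 symbols, Ctgf being an older symbol of Ccn2. All 11 genes behind them had values, 4 could be tested and 0 were called. These libraries held only fragments of messenger RNA. Neurod1, a beta-cell transcription factor, had 16.7, 14.4 and 17.7 normalized reads in control lines 5-9, 2 and 16 and 11.3, 10.5 and 9.23 in PWS lines 3, 19-1 and 19-4. The groups did not overlap, from 87 reads in all, as was so downward for 6.29% of the genes tested, and the log2 difference was -0.61 ± 0.36 (SE, limma adjusted p 0.860). Hspa5, an endoplasmic reticulum chaperone, had 107.0 ± 23.0 among controls and 74.6 ± 19.7 among PWS lines (SD, n = 3 each, limma adjusted p 0.860). Rfx6, an islet transcription factor, had 8.97 ± 3.82 and 13.4 ± 2.84 (SD, n = 3 each, limma adjusted p 0.875), and Becn1, an autophagy gene, 6.26 ± 4.78 and 4.36 ± 2.81 (limma adjusted p 0.949). Map4k4, described as a direct target of miR-30d, had 30 reads in all and Snai1 had 1, while Vim and Ccn2 had none.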

How the data were processed

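Small RNA was sequenced from 3 control and 3 PWS lines, 1 library each. The authors prepared the libraries with a kit for small RNA in which each molecule receives its own identifier, and counted distinct identifiers. The submitters' processing notes name UMI-tools 1.0.0, cutadapt 1.18, Bowtie2 2.3.4.2, featureCounts, HTSeq 0.11.2 and DESeq2, and build Rnor_6.0. The deposited values are a signal, read counts per gene divided by a library size factor, in 2 tables: one counts a read for every gene it overlaps (used here) and one drops such reads. The Mir30 genes had the same reads in both. The tables also hold deposited log2 fold changes, their standard errors, p-values and adjusted p-values, which the authors made with DESeq2 for PWS against control. These were not used. All values above 0 were whole multiples (tolerance 0.001) of 1 read's value in their library, so reads were recovered exactly.

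limma 3.58.1 (limma-trend, R 4.3.3) was fitted to log2(normalized reads + 1) of all genes with a mean of at least 5, with genotype as the only term, Benjamini-Hochberg adjustment and a call at an adjusted p under 0.1. A fold change on this scale understates the change of low genes. edgeR 4.0.16 and DESeq2 1.42.0 were run on recovered reads as alternatives. Pair ratios were compared by an exact 2-sided permutation test. Named genes were the 6 members, genes with the same seed, the 3 genes most correlated with each member, the miRNA genes next to it in level, and fixed lists. The members and lists were chosen with earlier results of these data known. Intervals on shares cover counting error only. The limma-trend fit was checked on simulated data, and the other tests were not. RefSeq tables gave sequences and neighbours on GRCr8. Their coordinates were not used, since the files are on another build. Replicate numbers were not used to pair the lines in the main fit.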

Additional observations from a re-analysis of the deposited data

How the results depend on the processing

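Each Mir30 gene, and Mir384, kept a negative log2 difference in 22 of 22 alternatives and was called in 0. Scaling to miRNA reads brought Mir30d closest to 0, at -0.0072. The lowest adjusted p in any of them was 0.413, for Mir30c1. The number of genes called ranged from 41 with a filter at a mean of 20 to 66 with no filter, against 55. A fit that added the replicate number as a block called 56 genes and 0 Mir30 genes. Same-numbered lines had correlations of 0.414, 0.218 and -0.0574 over 1087 genes, and lines with different numbers had -0.551 to 0.303. These values do not settle whether the numbers pair the lines, and the main fit did not use the numbers. The family total differed by -0.269 on the log2 scale without Mir30d, against -0.142. Scaled to miRNA reads it differed by -0.047. Leaving out 1 line gave -0.203 to -0.066. The differences in the pair ratios kept their sign in all alternatives run. Leaving out 1 line, they ran from 0.182 to 0.734 for Mir30a to Mir30c2, from 0.212 to 0.788 for Mir30d to Mir30b, and from 0.194 to 0.706 for Mir30e to Mir30c1. The totals that averaged the miR-30c genes (-0.137) or added Mir384 (-0.165, added after the data were seen) moved little. With 3 lines a group, of which 19-1 and 19-4 are subclones, differences of the size seen for Mir30b and the miR-30c genes could not be told from the spread between lines.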
